A study of Mus musculus with 15 samples.

Results

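The 10 genes described here set, remove or protect DNA methylation in the early mouse embryo: the methyltransferases Dnmt1, Dnmt3a, Dnmt3b and Dnmt3l, the maintenance factor Uhrf1, the oxidases Tet1, Tet2 and Tet3, and the protectors Dppa3 and Zfp57. They were chosen by name, not by a rule on measured values, but with earlier results of these data known. They are 10 of the 24982 gene symbols counted. All 10 had enough reads to be tested, as did 15696 genes in all. Messenger RNA was counted by RNA-seq after selection for poly(A) in E14TG2, an established line of mouse embryonic stem cells (ESCs), while the cells turned into epiblast-like cells (EpiLCs), a state close to the epiblast at implantation. The 15 libraries formed 5 groups of 3: ESC at day 0, d2-Control and d2-Atg7 KO at day 2, and d4-Control and d4-Atg7 KO at day 4. The ESC libraries carry the genotype label Control, and no day 0 library of the knockout (KO) was analysed here. Atg7 encodes an enzyme needed to build autophagosomes, the vesicles of autophagy. ESCs were grown on inactivated fibroblasts (MEFs) in KSR medium with LIF, PD0325901 and CHIR99021, and the transition used fibronectin, N2B27 medium, activin A, bFGF and KSR. Neither the part of Atg7 that was removed nor whether the KO cells are 1 clone was given in the sources used here. Nothing in the labels states separate cultures for the 3 libraries of a group, so p-values measure only the spread between these libraries, which may be technical.

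DNMT3A and DNMT3B place methyl groups on cytosines that carry none, and DNMT3L, which has no catalytic activity of its own, stimulates them. DNMT1 copies the pattern onto the new strand after replication, guided by UHRF1, which binds hemimethylated CG sites. TET1, TET2 and TET3 oxidise methylcytosine, which leads to its loss. DPPA3 (also called Stella) restrains maintenance methylation by acting on UHRF1, and ZFP57 with its partner TRIM28 keeps imprinted regions methylated. Naive ESCs have little DNA methylation, and its rise in the epiblast around implantation is attributed to the de novo enzymes. Only messenger RNA was measured here, not protein or methylation.

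Some properties of the whole series bear on what follows. Total counts lay between 14059237 and 23371546 per library. Levels below are CPM (counts scaled to one common library size, with TMM factors). Differences are log2 fold changes ± standard error, taken from an edgeR quasi-likelihood model of all 15 libraries. Atg7 itself stood at 14.6, 12.1 and 14.0 CPM in the d2-Control libraries and at 6.84, 7.53 and 7.11 CPM in the d2-Atg7 KO libraries. The day 4 means were 19.5 ± 0.38 CPM (SD, n = 3) in control and 11.9 ± 1.28 CPM (SD, n = 3) in KO cells. Its transcript was thus lower in each KO library and still present (log2 fold change −0.92 ± 0.11 and −0.71 ± 0.11, edgeR adjusted p = 8.34e-06 and 8.39e-05). Hprt, a gene that E14TG2 cells are known to lack, stood between 183 and 203 CPM in the libraries labelled ESC and between 1.59 and 2.94 CPM in the other 12. The libraries labelled ESC therefore go against the labelled line, and every comparison with them carries that difference. Summed fibroblast markers (10 genes, none at 0) ran from 234 to 1827 CPM in the libraries labelled ESC, 259 to 303 in d2-Control and 463 to 824 in d2-Atg7 KO. They ran from 90.4 to 93.5 CPM in d4-Control and from 129 to 179 CPM in d4-Atg7 KO, so the sums were higher in KO than in control cells at both days. By edgeR, 5 of the 10 markers were higher at day 2, against 20.4% of all tested genes, and 1 (Col1a1) at day 4, against 19.5%. None was lower. Thy1, Postn and Lox had values below 0 at day 4 (−0.56, −0.17 and −0.08) that did not pass. In bulk RNA, fewer cells that make a transcript and less transcript per cell cannot be told apart.

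Promoter windows differed in CG content between these genes, and for some genes also between starts. The 4 windows printed are those of the de novo pair Dnmt3b and Dnmt3l, which were lower together in KO cells at day 2, and of Tet1 and Zfp57, which had the largest increases in KO cells at day 4. Each runs from 250 bases before to 50 bases after a RefSeq start on GRCm38.p6, on the strand of the gene, with every CG, the dinucleotide that is methylated, in capitals. The windows are chr2:153649199-153649498 (+ strand) for Dnmt3b, chr10:78042037-78042336 (+) for Dnmt3l, chr10:62887275-62887574 (− strand) for Tet1 and chr17:37000913-37001212 (+) for Zfp57.
Dnmt3b: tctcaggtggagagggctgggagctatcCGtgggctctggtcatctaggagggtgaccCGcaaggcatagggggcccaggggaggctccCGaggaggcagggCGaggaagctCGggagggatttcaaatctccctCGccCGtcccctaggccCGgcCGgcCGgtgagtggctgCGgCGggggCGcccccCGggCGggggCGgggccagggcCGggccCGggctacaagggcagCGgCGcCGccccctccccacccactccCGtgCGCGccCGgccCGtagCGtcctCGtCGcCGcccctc
Dnmt3l: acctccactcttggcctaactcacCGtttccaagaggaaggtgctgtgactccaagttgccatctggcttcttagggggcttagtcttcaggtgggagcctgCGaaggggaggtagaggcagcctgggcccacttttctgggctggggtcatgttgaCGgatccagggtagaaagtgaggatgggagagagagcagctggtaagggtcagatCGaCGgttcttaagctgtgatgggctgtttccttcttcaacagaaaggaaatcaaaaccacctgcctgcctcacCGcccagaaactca
Tet1: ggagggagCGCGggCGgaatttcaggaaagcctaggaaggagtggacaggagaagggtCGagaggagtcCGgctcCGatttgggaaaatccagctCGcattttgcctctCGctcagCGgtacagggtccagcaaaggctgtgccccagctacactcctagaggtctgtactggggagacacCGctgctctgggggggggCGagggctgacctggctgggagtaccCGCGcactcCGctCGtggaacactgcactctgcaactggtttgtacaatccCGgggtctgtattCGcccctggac
Zfp57: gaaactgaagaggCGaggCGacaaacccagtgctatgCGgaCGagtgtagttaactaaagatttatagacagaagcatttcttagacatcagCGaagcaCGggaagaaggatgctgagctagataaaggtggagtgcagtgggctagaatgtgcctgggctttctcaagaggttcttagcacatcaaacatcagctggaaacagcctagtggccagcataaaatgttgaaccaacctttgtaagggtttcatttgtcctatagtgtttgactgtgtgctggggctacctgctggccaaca
A window was given for 9 of the 10 genes, the exception being Dppa3. The Dnmt3b window held 30 CG and that of Tet1 held 17, while those of Dnmt3l and Zfp57 held 6 each. Of all 32851 windows of this length, 11.7% held at least 30 CG, 31.4% held at least 17 and 56.4% held at least 6, with a median of 7. CG reads the same on both strands, and 94.6% of all windows held at least 1. The Tet2 window held 57 CG (0.2% of all windows held as many). Some genes have several RefSeq starts, and the window nearest to the gene start was taken. Dnmt3a has 3 windows, with 46, 47 and 18 CG, and Dnmt1 has 3, with 2, 12 and 33. Uhrf1 has 2, with 12 and 33. The only Tet1 window lies inside the gene, whose annotated start is at 62908996. Whether any of these sites was methylated was not measured.

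The Atg7 KO libraries had lower levels of most of these genes at day 2, and a different pattern at day 4. At day 2, 7 of the 10 were lower in KO than in control cells, against 21.4% of all tested genes, 1 was higher (Tet3, against 20.4%) and 2 did not pass (Tet1 and Tet2). At day 4, 5 were higher, against 19.5% of all tested genes, 2 were lower (Dnmt3l and Dppa3, against 18.1%) and 3 did not pass. The median log2 fold change of the 10 was −0.325 at day 2 and 0.17 at day 4, where the medians over all genes were −0.015 and −0.011. The libraries of the groups did not overlap for 9 of the 10 genes at day 2 and 8 of 10 at day 4, against 61.3% and 54.9% of all tested genes. Only Dnmt3l and Dppa3 were lower at both days. None was higher at both.

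**Figure D1:**
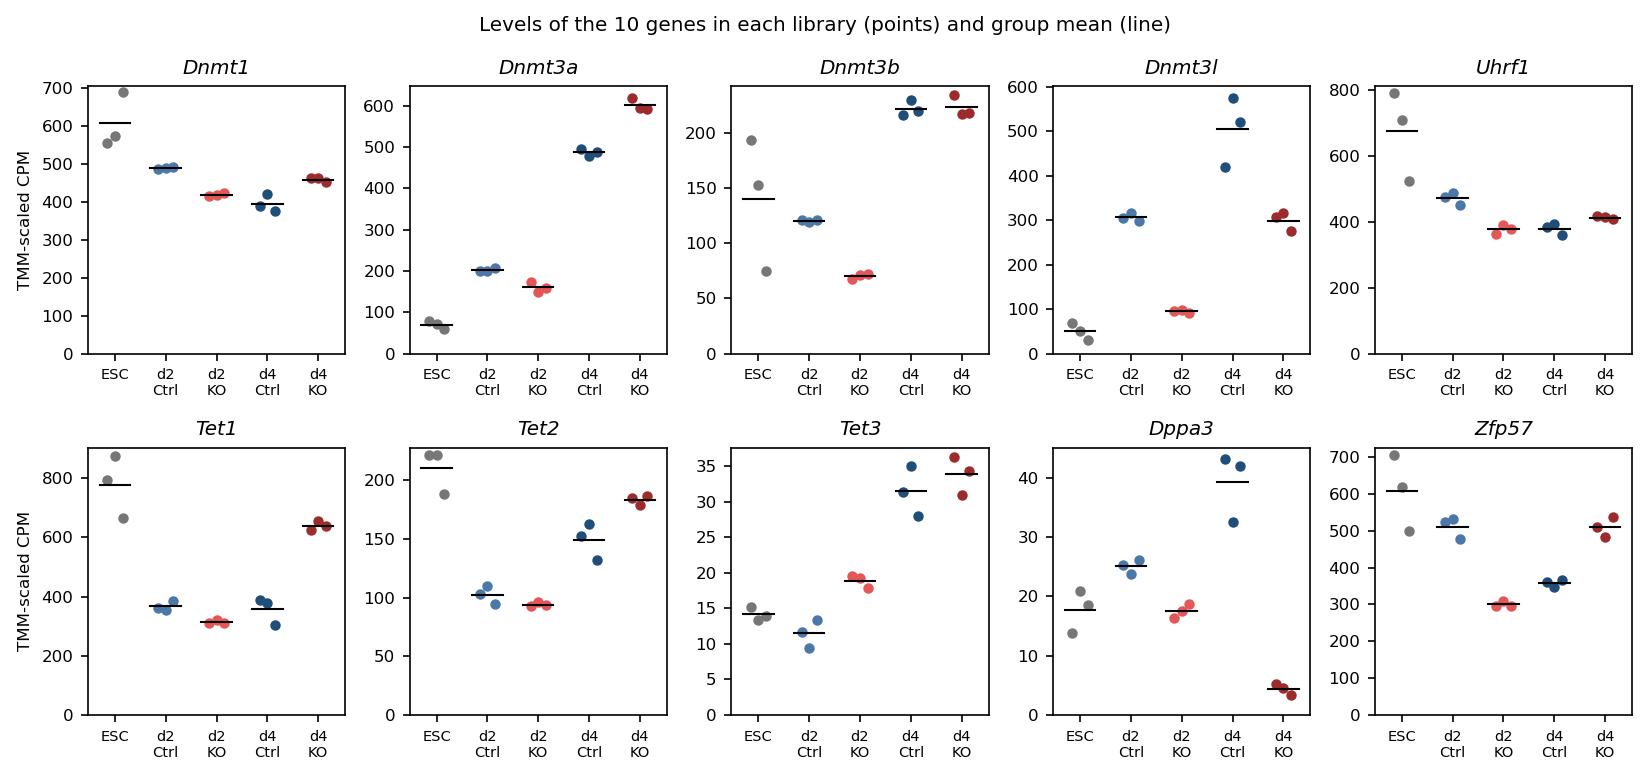
Level of each of the 10 genes in TMM-scaled CPM (vertical axis, linear, from 0) in the 15 libraries (points) of the 5 groups, with group means as lines. Dppa3 falls to between 3.39 and 5.22 CPM in the d4-Atg7 KO libraries, and Dnmt3l is lower in KO than in control libraries at both days.

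**Figure D2:**
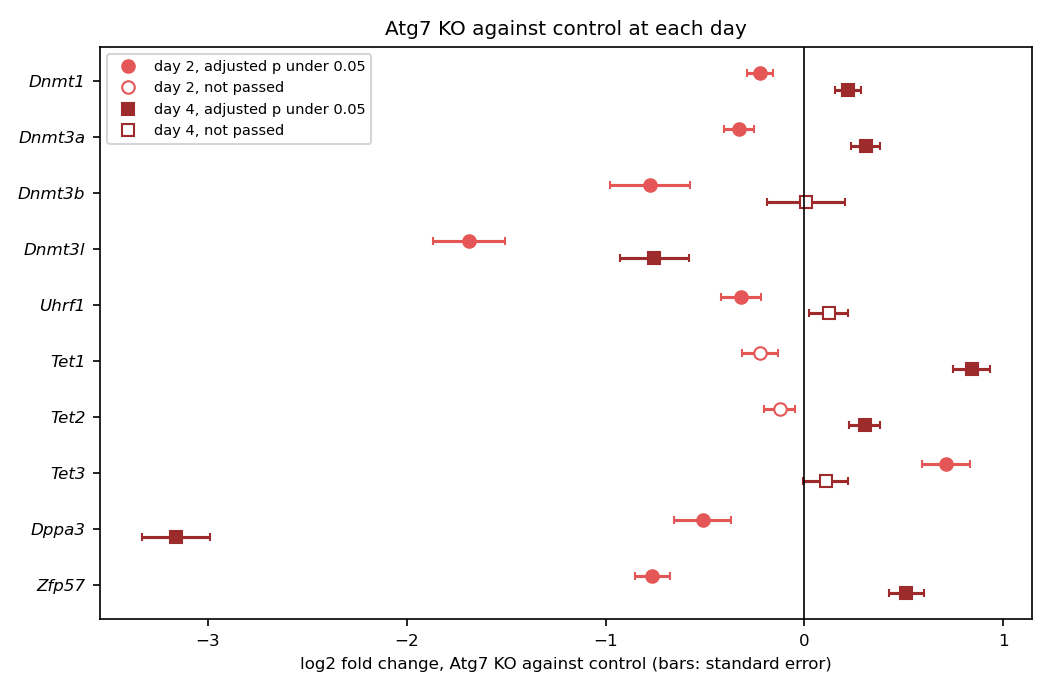
Log2 fold change of Atg7 KO against control cells (horizontal axis) for each gene at day 2 (circles) and day 4 (squares), with bars for the standard error and filled symbols where the edgeR adjusted p was under 0.05. Most day 2 values lie left of 0, and at day 4 Dppa3 stands apart at −3.16.

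Among the de novo methylation genes, Dnmt3l, the catalytically inactive cofactor, had the largest difference at day 2. It lies on chromosome 10 (78041947 to 78063622, GRCm38). Its level was 306, 316 and 297 CPM in the d2-Control libraries and 96.0, 98.6 and 90.6 CPM in the d2-Atg7 KO libraries, 3.22-fold lower (−1.69 ± 0.18, edgeR adjusted p = 3.15e-06). At day 4 it stood at 419, 575 and 520 CPM in control and at 306, 316 and 275 CPM in KO libraries, 1.69-fold lower (−0.76 ± 0.17, edgeR adjusted p = 0.00282). All 3 KO libraries were below all 3 control libraries at each day, and the day 4 KO libraries lay in the range of the day 2 controls or below it. Dnmt3l shares 67 exon bases with Aire, a gene on the opposite strand. Aire was also lower in KO cells, by 1.53 at day 2 and 2.47 at day 4 on the log2 scale (edgeR adjusted p = 3.76e-05 and 8.13e-07). Aire's counts were between 1.55% and 15.57% of those of Dnmt3l. Whether counting used the strand was not given in the sources used here, so reads in the shared bases cannot be told apart.

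Dnmt3b, the de novo enzyme prominent in the implanting epiblast, lies on chromosome 2 (153649450 to 153687730). It stood at 121, 119 and 121 CPM in the d2-Control libraries and at 67.6, 70.9 and 71.8 CPM in the d2-Atg7 KO libraries. The groups were well separated, and KO cells were 1.71-fold lower (−0.78 ± 0.20, edgeR adjusted p = 0.00586). At day 4 the control libraries held 216, 229 and 219 CPM and the KO libraries 234, 217 and 218 CPM. These overlapped, and the difference was 0.01 ± 0.20 (edgeR adjusted p = 0.977), with a 95% interval from −0.38 to 0.39. With a fibroblast score (mean log2 CPM over 3 collagen genes) in the model, the day 4 value became −0.61 ± 0.10 (edgeR adjusted p = 4.97e-05) and that of day 2 −1.32. That score ran from 5.86 to 8.93 in the libraries labelled ESC and from 6.51 to 7.49 in d2-Atg7 KO. It spread less in d2-Control (5.40 to 5.69), d4-Control (2.77 to 3.025) and d4-Atg7 KO (4.27 to 4.73). Values adjusted for it, here and below, thus lean most on the libraries labelled ESC. Standard errors of Dnmt3b were widened by the libraries labelled ESC, where it ran from 74.8 to 194 CPM. Without those 3 libraries the standard error at day 2 was 0.05.

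Dnmt3a, the other de novo enzyme, lies on chromosome 12 (3806007 to 3914443) and differed less. At day 2 it stood at 200, 199 and 208 CPM in control and at 174, 150 and 159 CPM in KO libraries, and at day 4 at 496, 479 and 487 CPM in control and at 620, 596 and 593 CPM in KO libraries. KO cells were thus lower at day 2 (−0.33 ± 0.08, edgeR adjusted p = 0.00239) and higher at day 4 (0.31 ± 0.07, edgeR adjusted p = 0.0038), with no overlap at either day. With the fibroblast score in the model the day 4 difference was 0.17 and did not pass (edgeR adjusted p = 0.0943). An antisense gene that shares 133 exon bases with Dnmt3a had at most 3 counts in any library.

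The differences of the maintenance pair lay between −0.32 and 0.22 on the log2 scale at both days. Dnmt1, which copies methylation after replication, lies on chromosome 9 (20907209 to 20959888). It stood at 488, 489 and 493 CPM in the d2-Control libraries and at 416, 419 and 424 CPM in the d2-Atg7 KO libraries, and was 1.17-fold lower (−0.22 ± 0.07, edgeR adjusted p = 0.0123). In the d4-Control libraries it held 389, 421 and 376 CPM and in the d4-Atg7 KO libraries 464, 463 and 452 CPM, and was 1.16-fold higher (0.22 ± 0.07, edgeR adjusted p = 0.0157). Groups did not overlap at either day, but both differences were small. The day 2 difference was −0.09 (edgeR adjusted p = 0.22) with the fibroblast score in the model. The day 4 call did not pass without d4-Control replicate 1 or 3 (edgeR adjusted p = 0.05 and 0.0692).

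Uhrf1, which recruits DNMT1 to replicated DNA, lies on chromosome 17 (56303321 to 56323486). In the d2-Control libraries it held 476, 486 and 451 CPM, and in the d2-Atg7 KO libraries 364, 390 and 378 CPM, a lower level (−0.32 ± 0.10, edgeR adjusted p = 0.0161). Leaving out d2-Control replicate 2 or d2-Atg7 KO replicate 1 ended that call (edgeR adjusted p = 0.0566 and 0.0611). Its day 4 levels were 384, 393 and 360 CPM in control and 417, 413 and 408 CPM in KO libraries. All 3 KO libraries were above the controls, yet the difference of 0.12 ± 0.10 did not pass (edgeR adjusted p = 0.357).
Both genes are more active in S phase. Summed S phase genes (20 genes) ran from 4494 to 4549 CPM in d2-Control and from 3800 to 4042 CPM in d2-Atg7 KO. Of these 20, 10 were lower and 0 higher at day 2 by edgeR, against 21.4% and 20.4% of all tested genes. At day 4, 6 were higher and 4 lower, against 19.5% and 18.1%. Their part in the Dnmt1 and Uhrf1 values was not tested.

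Among the oxidases, Tet1 at day 4 had the largest difference. Tet1, the main TET enzyme of ESCs, lies on chromosome 10 (62804570 to 62908996). It stood at 389, 379 and 303 CPM in the d4-Control libraries and at 623, 655 and 639 CPM in the d4-Atg7 KO libraries, 1.79-fold higher (0.84 ± 0.09, edgeR adjusted p = 4.15e-06). At day 2 the control libraries held 362, 355 and 385 CPM and the KO libraries 312, 322 and 311 CPM. Each day 2 KO library was below each control, but −0.22 ± 0.09 did not pass (edgeR adjusted p = 0.059). In a fit without the libraries labelled ESC it did (−0.21, edgeR adjusted p = 0.0112).

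Tet2 (chromosome 3, 133463679 to 133545139), which lacks the CXXC domain of Tet1, stood at 152, 162 and 132 CPM in the d4-Control libraries and at 185, 179 and 187 CPM in the d4-Atg7 KO libraries. It was thus higher in KO cells at day 4, with no overlap (0.30 ± 0.08, edgeR adjusted p = 0.0058). With the fibroblast score in the model, 0.18 did not pass (edgeR adjusted p = 0.0849). At day 2 it stood at 103, 110 and 95.03 CPM in control and at 92.6, 96.4 and 93.4 CPM in KO libraries, and the groups overlapped (−0.13 ± 0.08, edgeR adjusted p = 0.216). Tet3 (chromosome 6, 83362373 to 83459084), known for its role in the zygote, was the least abundant oxidase. It held 11.7, 9.45 and 13.4 CPM in the d2-Control libraries and 19.6, 19.2 and 17.9 CPM in the d2-Atg7 KO libraries, and was 1.64-fold higher (0.71 ± 0.12, edgeR adjusted p = 0.000217). Tet3 was the gene that rose in KO cells at day 2. On day 4 the levels were 31.5, 35.0 and 28.0 CPM in control and 36.3, 31.0 and 34.3 CPM in KO libraries, which overlapped (0.11 ± 0.11, edgeR adjusted p = 0.494).

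The largest difference of all 10 genes was that of Dppa3 at day 4. Dppa3, a maternal and germ cell factor that opposes UHRF1, lies on chromosome 6 (122626410 to 122630272). It stood at 43.1, 32.6 and 42.0 CPM in the d4-Control libraries and at 5.22, 4.50 and 3.39 CPM in the d4-Atg7 KO libraries, 8.94-fold lower (−3.16 ± 0.17, edgeR adjusted p = 8.75e-09). Only 0.21% of all tested genes had a value as low. At day 2 it stood at 25.3, 23.8 and 26.1 CPM in control and at 16.4, 17.5 and 18.7 CPM in KO libraries, 1.43-fold lower (−0.51 ± 0.14, edgeR adjusted p = 0.00943). KO libraries were below control libraries at both days without overlap, and within the KO cells the level dropped 4.00-fold from day 2 to day 4 (standard error 0.17 on the log2 scale, edgeR adjusted p = 4.85e-08) while it rose 1.57-fold in control cells (0.65 ± 0.14, edgeR adjusted p = 0.000676). Leaving out any single library kept both KO calls.

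Dppa3 sits in a cluster of pluripotency genes, and none of its tested neighbours had a value as low at day 4. Of the other 10 tested genes that start within 250 kb, Gdf3, a TGF-beta family ligand 21 kb away, was higher in KO cells by 0.85 at day 2 and 1.09 at day 4. Nanog, a naive pluripotency factor 81.1 kb away, was higher by 1.13 and 0.72, and Apobec1, a cytidine deaminase gene 48.6 kb away, by 1.14 and 0.63. The edgeR adjusted p of these 3 genes was at most 0.00101 at either day. Beyond them, Slc2a3 (−0.38 at day 4), Rimklb (−0.19 and −0.48) and Necap1 (−0.25 at day 4) were slightly lower. Summed 2-cell-like markers (11 genes) were lower in KO than in control cells at both days, as Dppa3 was. They ran from 404 to 511 CPM in d4-Control and from 74.5 to 80.6 CPM in d4-Atg7 KO, and at day 2 from 42.9 to 58.8 and from 10.7 to 17.0 CPM, where 1 of the 11 was at 0 in the KO group. By edgeR, 8 of 10 tested 2-cell-like markers were lower at day 2, against 21.4% of all tested genes. At day 4, 10 of 10 were lower, against 18.1%. Within KO cells, 9 of the 10 rose from day 2 to day 4, against 31.2% of all tested genes, while Dppa3 fell. Summed germ cell markers (6 genes) ran from 192 to 214 CPM in d4-Control and from 239 to 251 CPM in d4-Atg7 KO, of which Kit made up a mean of 129 and 157 CPM. Of these 6, 4 were higher and 0 lower at day 2, against 20.4% and 21.4% of all tested genes. At day 4, 3 were higher and 1 (Dnd1, −0.39 ± 0.10) was lower, against 19.5% and 18.1%. The part of cells with either programme in the Dppa3 values was not tested.

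**Figure D3:**
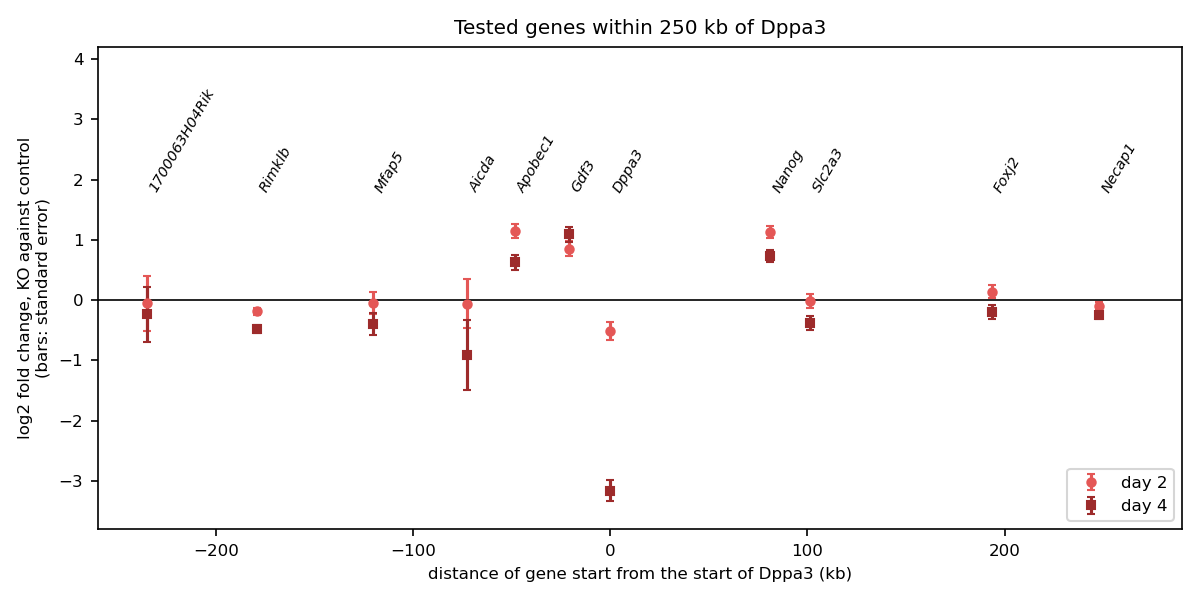
Log2 fold change of Atg7 KO against control cells (vertical axis; bars, standard error) for tested genes that start within 250 kb of Dppa3, by distance of their start from that of Dppa3 in kb, at day 2 (circles) and day 4 (squares). Dppa3 is far below 0 at day 4, while Apobec1, Gdf3 and Nanog on either side are above 0 at both days.

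Zfp57, the zinc finger protein that guards imprinted methylation, lies on chromosome 17 (37001163 to 37010635) and changed sides between the days. It stood at 525, 532 and 478 CPM in the d2-Control libraries and at 297, 308 and 297 CPM in the d2-Atg7 KO libraries, 1.70-fold lower (−0.77 ± 0.09, edgeR adjusted p = 6.93e-06). At day 4 it stood at 361, 348 and 366 CPM in control and at 511, 484 and 539 CPM in KO libraries, 1.43-fold higher (0.51 ± 0.09, edgeR adjusted p = 0.000282). No libraries overlapped at either day, and the d4-Atg7 KO level lay in the range of the d2-Control libraries apart from 1 library just above it. With the fibroblast score in the model the day 4 value was 0.26 and still passed (edgeR adjusted p = 0.00128).

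The KO effect at day 4 differed from that at day 2 for each of the 10 genes, tested as an interaction (36.1% of all tested genes passed): 8 had a higher value at day 4, against 18.6% of all tested genes, and 2 (Tet3 and Dppa3) a lower one, against 17.6%. The median difference was 0.54, and −0.009 over all genes. It was 1.28 ± 0.13 for Zfp57 and 1.06 ± 0.13 for Tet1 (edgeR adjusted p = 2.34e-06 and 1.51e-05), and −2.65 ± 0.22 for Dppa3 (8.9e-07). For Dnmt3b, 0.79 ± 0.28 was near the threshold (edgeR adjusted p = 0.0387). It did not pass in any of the 12 fits that left out 1 day 2 or day 4 library (0.75 to 0.81, edgeR adjusted p up to 0.0772) nor by DESeq2 (adjusted p = 0.0724), and it passed at 1.27e-08 without the libraries labelled ESC. For Uhrf1 the call (0.44 ± 0.14, edgeR adjusted p = 0.0211) was lost without d4-Control replicate 3 (0.41, edgeR adjusted p = 0.0523).

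Seen within KO cells, 7 of the 10 genes rose from day 2 to day 4, against 31.2% of all tested genes, 1 fell (Dppa3, against 32.0%) and 2 did not pass. The libraries of the 2 days did not overlap for any of the 10, against 73.3% of all tested genes. The de novo genes rose the most, Dnmt3a by 1.91 ± 0.08, Dnmt3b by 1.67 ± 0.20 and Dnmt3l by 1.65 ± 0.18. All 3 TET genes rose, Tet1 by 1.02 ± 0.09, Tet2 by 0.96 ± 0.08 and Tet3 by 0.84 ± 0.12, and Zfp57 by 0.77 ± 0.09. Dnmt1 (0.13 ± 0.07) and Uhrf1 (0.13 ± 0.10) did not pass the test (edgeR adjusted p = 0.0939 and 0.269). In control cells over the same days, Dnmt3a rose by 1.27 ± 0.08, Dnmt3b by 0.88 ± 0.20 and Dnmt3l by 0.72 ± 0.17, while Tet1 did not pass (−0.04 ± 0.09, edgeR adjusted p = 0.699) and Zfp57 fell by 0.51 ± 0.09. This control step was the part of the normal course that does not rest on the libraries labelled ESC: 6 of the 10 genes rose, against 33.9% of all tested genes, 3 fell (Dnmt1, Uhrf1 and Zfp57, against 34.6%) and 1 did not pass. With the fibroblast score in the model, 1 gene was lower (Dnmt1), as were 4865 of all 15696 tested genes. Uhrf1 (0.16), Zfp57 (−0.09) and Dppa3 (0.45) did not pass (edgeR adjusted p = 0.105, 0.32 and 0.0926). In the fit without that score, Tet3 rose by 1.45 ± 0.12 and Dppa3 by 0.65 ± 0.14 in this control step. Both lie on chromosome 6, where the median of the 773 tested genes was 0.389 for this step, against −0.014 over all genes. For KO against control cells the chromosome 6 medians were 0.087 at day 2 and −0.046 at day 4.

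Against the libraries labelled ESC, control cells at day 4 had more of the de novo genes and less of the maintenance pair. There, 5 genes were higher, against 36.2% of all tested genes, and 5 lower, against 35.6%. Dnmt3l stood at 69.3, 51.2 and 30.2 CPM in the libraries labelled ESC and was 10.04-fold higher in d4-Control (3.33 ± 0.20, edgeR adjusted p = 2.16e-10). Dnmt3a, at 77.9, 72.6 and 59.0 CPM in the libraries labelled ESC, was 6.98-fold higher (2.80 ± 0.08), and Dnmt3b, at 194, 152 and 74.8 CPM, was 1.58-fold higher (0.66 ± 0.20, edgeR adjusted p = 0.00707). Uhrf1, at 790, 709 and 524 CPM, was 1.78-fold lower, and Dnmt1, at 557, 575 and 691 CPM, was 1.54-fold lower. With the fibroblast score in the model, the calls of Uhrf1 (0.03), Zfp57 (−0.008), Tet2 (−0.14) and Dppa3 (0.80) in this comparison were lost (edgeR adjusted p = 0.886, 0.963, 0.528 and 0.0748). Tet1 went from 792, 875 and 667 CPM to a level 2.18-fold lower, and Tet2, at 221, 222 and 189 CPM, was 1.41-fold lower. Tet3, at 15.2, 13.3 and 14.0 CPM, was 2.22-fold higher. Dppa3, at 13.8, 20.9 and 18.5 CPM, was 2.21-fold higher, and Zfp57, at 706, 618 and 499 CPM, was 1.70-fold lower.
From the libraries labelled ESC to d2-Control, 3 genes were higher (Dnmt3a, Dnmt3l and Dppa3, against 35.6% of all tested genes), 6 lower (against 34.9%) and Dnmt3b did not pass (−0.22 ± 0.20, edgeR adjusted p = 0.33). Without ESC replicate 3, Dnmt3b was lower by 0.52 (edgeR adjusted p = 5.6e-07). That library had the lowest fibroblast sum of its group (234 CPM) and the lowest Dnmt3a, Dnmt3b, Dnmt3l, Uhrf1, Tet1, Tet2 and Zfp57, and the highest Dnmt1. With the fibroblast score in the model the Dnmt3b value turned to 0.68 (edgeR adjusted p = 4.83e-05). That model leans most on the spread within the libraries labelled ESC, and cannot separate feeder cells from other differences between those libraries. The part of feeder cells in these values was not tested. Tet3 (−0.30, edgeR adjusted p = 0.044) and Zfp57 (−0.25, edgeR adjusted p = 0.0189) passed, but their libraries overlapped, and either call was lost without ESC replicate 1 (−0.25 and −0.13, edgeR adjusted p = 0.129 and 0.14).

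Levels can be compared between genes only per length, and counts per kb of exon were therefore set against each other within each library. In the libraries labelled ESC, Dnmt3b exceeded Dnmt3a by this measure, with a ratio of Dnmt3a to Dnmt3b of 0.123, 0.146 and 0.242. That ratio was 0.508, 0.516 and 0.527 in d2-Control, and 0.790, 0.651 and 0.677 in d2-Atg7 KO libraries. At day 4 it was 0.703, 0.641 and 0.683 in control and 0.814, 0.843 and 0.836 in KO libraries, so KO cells were shifted towards Dnmt3a at both days, without overlap. Dnmt3l to Dnmt3b was 4.33, 4.55 and 4.204 in d2-Control and 2.43, 2.38 and 2.16 in d2-Atg7 KO. On day 4 it was 3.31, 4.28 and 4.06 in control and 2.24, 2.49 and 2.16 in KO libraries. The cofactor was thus scarcer per unit of Dnmt3b in every KO library than in every control library, also at day 4, where Dnmt3b itself overlapped between groups. Tet1 to Dnmt3a, an eraser against a writer, dropped from a mean of 12.0 in the libraries labelled ESC to 1.95 in d2-Control and 0.789 in d4-Control. It was 1.14 in d4-Atg7 KO, whose 3 libraries lay above all 3 controls. At day 2 the KO libraries (1.93, 2.31 and 2.11) overlapped the control libraries (1.95, 1.92 and 2.00). Tet1 to Tet2 was 2.79, 2.55 and 2.51 in d4-Control and 3.67, 3.99 and 3.73 in d4-Atg7 KO. The KO libraries of day 4 were near the d2-Control libraries (3.84, 3.51 and 4.42) in this ratio. They were also near the d2-Atg7 KO libraries (3.67, 3.64 and 3.64) and the libraries labelled ESC (3.90, 4.31 and 3.86). Uhrf1 to Dnmt1 lay between 1.58 and 1.72 in the day 2 and day 4 control libraries and between 1.51 and 1.61 in the KO libraries. No test was made of these ratios. A copy of Dnmt3b, Dnmt3c, was not among the counted symbols, and the handling of reads shared with it was not given in the sources used here.

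**Figure D4:**
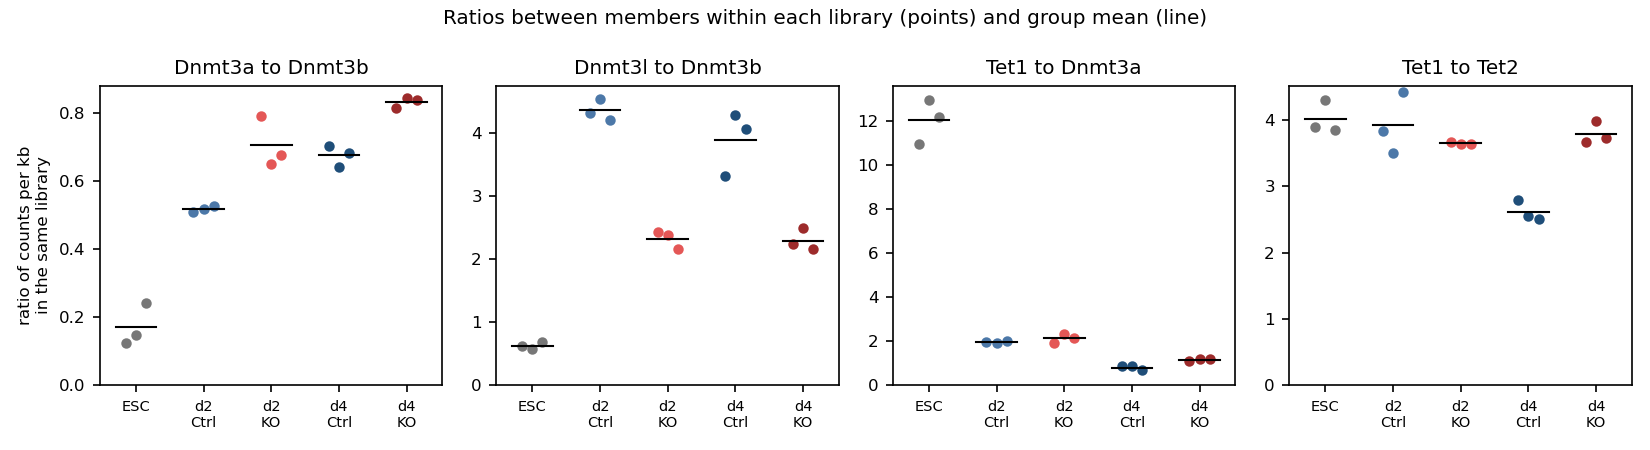
Ratio of counts per kb of exon between pairs of the genes in the same library (vertical axis, linear, from 0), for the 15 libraries (points) of the 5 groups, with group means as lines. The Dnmt3l to Dnmt3b ratio is lower in the KO than in the control libraries at both days, and Tet1 to Dnmt3a is highest in the libraries labelled ESC.

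In CPM per kb, Uhrf1 (mean 158) and Zfp57 (160) were the most abundant in the libraries labelled ESC, followed by Dnmt1 (82.4) and Tet1 (50.3). Dnmt3l led in d4-Control at 169 CPM per kb, with 100.04 in d4-Atg7 KO, where Zfp57 led at 135. Tet3 was the lowest in each group, from 0.690 in d2-Control to 2.03 in d4-Atg7 KO. Across groups the order of levels for Dnmt3a was d4-Atg7 KO, d4-Control, d2-Control, d2-Atg7 KO and ESC, with no overlap between neighbours. For Tet1, ESC came first and d4-Atg7 KO next. Of the other groups, d4-Control overlapped both d2-Control and d2-Atg7 KO, which did not overlap each other. For Dppa3 the order was d4-Control, d2-Control, ESC, d2-Atg7 KO and d4-Atg7 KO, and only ESC and d2-Atg7 KO overlapped.

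Over the 15 libraries, the genes most like each member were sought among 10873 genes by Pearson's r of log2 CPM. The points share the 5 groups, so a high r describes the group pattern alone. Dnmt3l was most like Itga3, an integrin gene (r = 0.991), and Mael, a germline piRNA factor (0.983). Tet1 was most like Wars (0.982), Cherp (0.977) and Trim28, the corepressor that partners ZFP57 (0.976). Dnmt3a was most like Xiap (0.987), Dnmt3b like Ddx1 (0.984), Tet2 like Rrp12 (0.983) and Tet3 like Ice2 (0.978). Dppa3 was most like Sema4f (0.939), followed by the glycolytic enzyme genes Tpi1 (0.914) and Pgk1 (0.911). For the maintenance pair these were Brwd1 for Dnmt1 (0.972) and Rab1b for Uhrf1 (0.977), and for Zfp57 it was Arhgdia (0.952).

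The partners of these genes were taken from lists of the pathway, and some moved as the members did. Trim28, which ZFP57 recruits, was higher in KO cells at day 4 (0.77 ± 0.05, edgeR adjusted p = 8.97e-08), at a mean of 1458 CPM against 855 in control, and did not pass at day 2 (−0.11 ± 0.05). For the counts of the lists, the shares over all tested genes at day 2 were 20.4% higher and 21.4% lower, and at day 4 19.5% higher and 18.1% lower. A list with shares near these is not set apart by its count. Of 15 heterochromatin and imprint protection partners, 6 were higher and 1 lower in KO cells at day 2, and 7 higher and 2 lower at day 4. The heterochromatin protein gene Cbx3 was higher at day 2 (0.43 ± 0.06) and lower at day 4 (−0.25 ± 0.06), and Cbx5 was lower at day 2 (−0.23 ± 0.05) and higher at day 4 (0.39 ± 0.05). The insulator factor Ctcf was higher at both days (0.15 ± 0.05 and 0.38 ± 0.05). The median of the list was 0.133 at day 2 and 0.30 at day 4. Of 13 tested genes of active demethylation and base excision, 1 was higher and 7 lower at day 2, and 5 higher and 1 lower at day 4. Tdg, also on that list, had too few counts to be tested (group means from 0.02 to 0.25 CPM). Parp1, a DNA break sensor, was lower by 0.58 ± 0.05 at day 2 and higher by 0.61 ± 0.05 at day 4, and Ung, a uracil glycosylase, lower by 0.60 ± 0.06 and higher by 0.67 ± 0.06. The list median went from −0.289 to 0.162 between the days. Gadd45b, a stress-induced gene of this list, was lower at both days (−0.60 ± 0.14 and −1.40 ± 0.16).

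Of 9 maintenance and remodelling partners, 1 was higher and 3 lower at day 2, and 3 higher and 1 lower at day 4 (medians −0.053 and 0.108). Pclaf, a PCNA-binding protein involved in loading DNMT1, was lower at both days (−0.80 ± 0.09 and −0.91 ± 0.09), and Lig1, the replicative ligase, was lower at day 2 (−0.32 ± 0.06) and higher at day 4 (0.34 ± 0.06). Of 14 genes that promote or restrain de novo methylation, 4 were higher and 2 lower at day 2. At day 4, 8 were higher and 0 lower (medians −0.062 and 0.227). The counts therefore do not stand for more or less de novo methylation. The higher ones included Nsd1, an H3K36 methyltransferase (0.59 ± 0.07 and 0.49 ± 0.07), and Kdm2b, a CG island binder (0.51 ± 0.06 at day 4). Prdm14, a naive factor on the same list that is known to repress Dnmt3b and Dnmt3l, was higher at both days (1.04 ± 0.18 and 1.17 ± 0.19). Summed naive markers (7 genes) ran from 1558 to 1625 CPM in d2-Control and from 2208 to 2374 CPM in d2-Atg7 KO, and at day 4 from 1088 to 1121 and from 1639 to 1982 CPM. Of the 7, 3 were higher and 0 lower at day 2, and 6 higher and 0 lower at day 4. Nanog made up most of the day 2 gap, with a mean of 534 CPM in control and 1167 CPM in KO cells.

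Of 10 TET partners and cofactor enzymes, 6 were higher and 0 lower at day 2, and 6 higher and 1 lower at day 4 (medians 0.32 and 0.307). They included Sall1 (0.64 ± 0.11 and 1.03 ± 0.11) and Sall4 (0.29 ± 0.06 and 0.33 ± 0.06), zinc finger factors of pluripotent cells. Of 8 genes of methyl-CpG readers and their families, 4 were higher and 0 lower at day 2, and 3 higher and 0 lower at day 4 (medians 0.38 and 0.013). The reader Zbtb38 was higher at both days (1.06 ± 0.14 and 0.41 ± 0.14), Mbd1 at day 2 (1.06 ± 0.09) and Mbd3 of the NuRD complex at day 4 (0.77 ± 0.10). Mbd1 and the TET partners Cxxc5 and Cxxc1 lie on chromosome 18, where the median of all tested genes was 0.562 at day 2 and 0.015 at day 4. Of 12 tested genes of the methionine and S-adenosylmethionine cycle, which supplies the methyl donor, 5 were higher and 5 lower at day 2, and 4 higher and 2 lower at day 4 (medians 0.044 and 0.087). Shmt2, a mitochondrial serine enzyme gene, was higher at day 4 (1.18 ± 0.13).

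Genes known to be controlled by this methylation were counted too. Of 16 germline genes whose promoters are silenced by methylation, 1 was higher and 6 lower in KO cells at day 2, and 0 higher and 10 lower at day 4 (medians −0.117 and −0.434). Tdrkh (−0.51 ± 0.11 and −1.44 ± 0.11), Tex101 (−0.97 ± 0.18 and −1.87 ± 0.18) and Mael (−0.80 ± 0.07 and −0.49 ± 0.07) were lower at both days. All 16 were higher in d4-Control than in the libraries labelled ESC (against 36.2% of all tested genes), as were the de novo genes. From d2-Control to d4-Control, 15 of the 16 were higher and 1 lower, against 33.9% and 34.6% of all tested genes. Of 23 tested imprinted genes, 6 were higher and 6 lower at day 2, and 5 higher and 5 lower at day 4 (medians −0.055 and 0.007), which is near the shares over all tested genes. Cdkn1c, a cell cycle inhibitor, was lower at both days (−1.31 ± 0.13 and −0.92 ± 0.14), and so was Peg10 (−1.27 ± 0.13 and −0.44 ± 0.12). Dlk1 was lower at day 2 (−0.48 ± 0.11) and higher at day 4 (1.30 ± 0.13), and Grb10 did not pass at day 2 (−0.06 ± 0.08) and was higher at day 4 (1.18 ± 0.09). The counts of these lists are descriptions beside medians of −0.015 and −0.011 over all genes, and no list was tested as a set.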

How the data were processed

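Poly(A) RNA-seq gave 15 libraries in 5 groups of 3, grouped by title. The authors deposited raw read counts by gene symbol, 1 table a library. The tools listed in the submitters' processing notes are featureCounts, STAR, DESeq2 and StringTie, with the builds mm10 and GRCm38. Versions, settings and use of the strand were not given in the sources used here.

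Counts were tested with edgeR 4.0.16 (R 4.3.3, limma 3.58.1). The filter filterByExpr (minimum count 10, minimum total 15) kept 15696 genes and removed 9286. Libraries were scaled by TMM, and all 15 entered 1 quasi-likelihood fit with 5 group means. P-values were adjusted by Benjamini-Hochberg over all tested genes of each of 7 comparisons, and called below 0.05 whatever the fold. Standard errors are the log2 fold change divided by the root of the F statistic, and intervals at 95% use 1.96 standard errors. Gene positions and exon lengths are from GENCODE M21, promoter windows from RefSeq. Libraries of a group differed by more than sampling noise (chi-square per degree of freedom 3.36 to 34.17). The pairs with ESC replicate 3 gave 34.17 and 26.02, and no other pair was above 7.5. The script was tested on simulated data.

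The members and lists were chosen with earlier results of these data known. Named are all 10 members, Atg7 and Hprt, up to 3 genes per list with the smallest p in a comparison (where a call also passed at the other day, with that value), direct partners, and the 3 genes most like each member by Pearson's r (mean of at least 5 CPM, log2 CPM with a prior count of 1). The fibroblast score is the mean log2 CPM of Col1a1, Col1a2 and Col3a1. Aire and the genes near Dppa3 were named for their position. Alternatives were RLE and upper quartile scaling, 2 other filters, DESeq2 1.42.0, other sets of libraries, a block for the replicate number, the fibroblast score as a covariate, and a null of up to 1.5-fold.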

Additional observations from a re-analysis of the deposited data

Results flagged for a closer look

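For each of the 10 genes, the effect of Atg7 loss at day 4 differed from that at day 2 by a test of the difference itself, which is why each is listed (edgeR interaction term over 3 libraries a group, adjusted over all tested genes; 36.1% of all tested genes passed the same test). On the log2 scale, the effect at day 4 minus that at day 2 was 0.44 for Dnmt1 (adjusted p = 0.00162), 0.64 for Dnmt3a (0.000233), 0.79 for Dnmt3b (0.0387) and 0.93 for Dnmt3l (0.00773). It was 0.44 for Uhrf1 (0.0211), 1.06 for Tet1 (1.51e-05), 0.43 for Tet2 (0.00654) and 1.28 for Zfp57 (2.34e-06). It was negative for Tet3, at −0.61 (0.00913), and for Dppa3, at −2.65 (8.9e-07). For Dnmt1, Dnmt3a and Zfp57 the effect passed the test at both days with opposite signs, and for Dnmt3l and Dppa3 it was negative at both. The calls for Dnmt3b and Uhrf1 depend on which libraries are in the fit.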

How the results depend on the processing

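Of 1210 recomputed values of the 10 genes, 1110 kept their side of the threshold with no called value changing sign, 80 no longer passed, 15 newly passed and 5 changed sign with a call in at least 1 of the fits. Another 12 changed sign without passing in either fit, for Tet1, Dnmt3b, Uhrf1 and Dnmt1, with values of at most 0.22 in size. RLE scaling changed none of 70 calls and DESeq2 changed 1. The 5 changes of sign with a call arose with the fibroblast score as a covariate: Dnmt3b 0.68 and Zfp57 0.085 (control day 2 against ESC), Uhrf1 0.16 (control day 4 against day 2) and 0.028 (control day 4 against ESC), and Dnmt3b −0.61 (KO against control at day 4). With that covariate 3 genes were lower in control day 2 against ESC, 1 in control day 4 against day 2 and 2 in control day 4 against ESC. In KO cells at day 4, 3 were higher. Of all 15696 tested genes, 4766, 4865 and 3884 were lower in these control comparisons with the covariate, and 5483, 5424 and 5581 without it. In KO cells at day 4, 3384 were higher with it and 3058 without it. The cause of these changes was not tested. In edgeR's test against a 1.5-fold change, which asks for more than a difference from 0, 2 genes were lower in control day 2 against ESC, 2 higher and 0 lower in control day 4 against day 2 (0 lower also at unadjusted p under 0.05), and 3 lower in control day 4 against ESC. In KO against control cells it gave 0 higher (0 unadjusted) and 1 lower (Dnmt3l) at day 2. At day 4 it gave 1 higher (Tet1) and 1 lower (Dppa3), and for the difference between days 2 higher and 1 lower. Of all 15696 tested genes, this test called 425 higher and 422 lower in KO cells at day 2, and 171 and 443 at day 4. For the difference between days it called 350 and 496. Among control comparisons it called 2319 lower for day 2 against ESC and 2593 lower for day 4 against ESC. For control day 4 against day 2 it called 2525 higher and 2269 lower. The standard test gave 3 lower in control day 4 against day 2 and 1 higher in KO cells at day 2, and DESeq2 the same. Leaving out each library in turn, the genes lower in control day 2 against ESC numbered 4 to 7, those lower in KO cells at day 2 numbered 6 to 7, those higher at day 4 numbered 4 to 5, and those with a higher effect at day 4 than at day 2 numbered 6 to 7. The other counts did not move. Same-numbered libraries showed no clear joint deviation (correlations −0.044 to 0.054, own number highest in 6 of 18). With 3 libraries a group, that does not exclude a pairing by number. With a replicate block, 2 of 70 calls changed: Tet3 in control day 2 against ESC (−0.30, edgeR adjusted p = 0.0522) and Tet1 in KO cells at day 2 (−0.23, edgeR adjusted p = 0.0469). The KO calls lost without a single library, Dnmt1 at day 4 (1.16-fold) and Uhrf1 at day 2 (1.25-fold), were the only such losses for KO against control cells.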
